A study of Homo sapiens with 16 samples.

Results

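CXCL9, CXCL10 and CXCL11 are chemokine genes that lie side by side on human chromosome 4, and their H3K27ac signal was followed in WT and USP18−/− THP-1 cells before and after IFN. Regions were chosen when the deposited annotation gave one of these genes as the nearest gene and placed the centre of the region within 50000 bp of its transcription start site (TSS). This gave 11 of 151654 regions, of which 3 belonged to CXCL9, 3 to CXCL10 and 5 to CXCL11. All 11 passed the filter on low values (10 or more counts in 2 or more of the 8 libraries), and 9 passed it on the 6 libraries other than the IFN-treated USP18−/− ones. The other 2, CXCL10 −45 and CXCL11 −858, passed only through the group in which they were high and so had to differ. Their fold changes are given as descriptions, and counts are also given without them.

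THP-1 cells are a human line of monocytic leukemia, and acetylation of lysine 27 on histone H3 (H3K27ac) marks promoters and enhancers in use. The 4 groups were untreated WT cells, WT cells given IFNα at 1000 U/ml for 6 h, untreated USP18−/− cells and USP18−/− cells given the same IFNα, with 2 libraries each. WT cells are labelled as carrying Cas9 only and are described as transduced with a control guide, whereas USP18 was disrupted by CRISPR in the USP18−/− cells, which grew from sorted single cells, with the number of clones used for the ChIP-seq not stated. The replicates are described as biological, but no label ties them to separate clones, so that p-values measure the spread between these libraries. Each region is a 1000 bp window around an ATAC-seq peak, and its value is the number of ChIP tags in that window, given here as CPM, the counts scaled to a common library size. The libraries held 9046141 to 12935453.5 tags in all regions, so that 1 CPM stood for about 10 tags. At the promoters of myeloid marker genes, 7 of 8 genes had a region and 6 of those had a mean above 5 CPM, led by SPI1, the myeloid master regulator, at 92.2 CPM, whereas CSF1R was lowest at 2.23 CPM. Of 11 marker genes of other cell types, 3 had a region and 0 were above 5 CPM. The summed marker signal ranged over the libraries from 136 to 204 CPM for the myeloid genes and from 3.97 to 7.04 CPM for the others. Of the 7 myeloid regions, LYZ (lysozyme) fell with IFN in USP18−/− cells, by 1.40 on the log2 scale, and whether this moved with the locus was not tested.

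The chemokines encoded by the locus are secreted ligands of one receptor, CXCR3, which draws activated T cells and NK cells into inflamed tissue and tumours. Their promoters are classical targets of interferon. Type I IFN acts through the ISRE, which is bound by a complex that holds STAT2 and IRF9, type II IFN acts through GAS elements, and NF-κB adds to both. USP18 is a negative regulator of type I IFN signalling that acts at the IFNAR2 receptor chain.

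The sequences shown first are the 250 bases in front of each annotated start, because these carry the binding motifs through which the genes are known to respond, and the centre of the region with the highest IFN response of the locus. All come from the forward strand of the gene or, for the last, of the chromosome. Promoters are RefSeq sequences on GRCh38.p14, at chr4:76007510-76007759, chr4:76023498-76023747 and chr4:76036071-76036320 on the minus strand, and all were identical to the hg38 genome. The last sequence is chr4:76028362-76028562 of hg38, plus strand, inside intron 1 of ART3 and 4926 bp upstream of CXCL10. Capitals mark exact matches to the ISRE (GAAA, any 2 bases, GAAA), GAS (TTC, any 3 bases, GAA), AP-1 (TGANTCA) and NF-κB motifs on either strand.
CXCL9 promoter: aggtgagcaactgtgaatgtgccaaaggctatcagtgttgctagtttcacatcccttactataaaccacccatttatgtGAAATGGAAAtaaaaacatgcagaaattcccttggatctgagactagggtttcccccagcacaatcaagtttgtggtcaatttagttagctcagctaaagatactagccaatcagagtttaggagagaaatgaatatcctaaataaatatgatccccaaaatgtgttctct
CXCL10 promoter: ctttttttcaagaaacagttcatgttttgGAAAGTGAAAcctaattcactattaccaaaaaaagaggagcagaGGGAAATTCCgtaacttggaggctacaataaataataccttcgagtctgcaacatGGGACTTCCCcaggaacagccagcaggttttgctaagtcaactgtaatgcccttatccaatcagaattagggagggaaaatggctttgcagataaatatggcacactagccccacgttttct
CXCL11 promoter: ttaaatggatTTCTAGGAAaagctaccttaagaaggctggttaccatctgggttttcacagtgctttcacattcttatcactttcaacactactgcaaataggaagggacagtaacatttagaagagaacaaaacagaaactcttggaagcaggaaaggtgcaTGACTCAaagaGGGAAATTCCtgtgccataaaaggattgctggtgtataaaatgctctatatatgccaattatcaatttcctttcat
CXCL10 −4926 region centre: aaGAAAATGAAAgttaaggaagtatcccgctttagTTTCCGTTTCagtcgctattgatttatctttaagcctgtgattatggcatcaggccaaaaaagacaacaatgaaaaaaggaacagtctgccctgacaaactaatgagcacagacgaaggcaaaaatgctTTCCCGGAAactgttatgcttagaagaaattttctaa

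The CXCL9 promoter held 1 ISRE match, from −171 to −162 relative to the start. In the CXCL10 promoter an ISRE match lay at −221 to −212 and NF-κB matches lay at −177 to −168 and −122 to −113. The CXCL11 promoter carried a GAS match at −240 to −232, an AP-1 match at −87 to −81 and an NF-κB match at −76 to −67, and its ISRE letters were not found in this window. Among 35116 RefSeq promoters of the same length, 3.02% held an ISRE match, 6.57% a GAS match, 9.96% an NF-κB match and 6.57% an AP-1 match. The centre of the CXCL10 −4926 region held 2 ISRE matches on opposite strands, at chr4:76028364-76028373 and chr4:76028397-76028406, and 1 GAS match at chr4:76028526-76028534. These are letter matches, and binding of any factor was not measured.

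Over the whole windows, 5 of 11 regions held an ISRE match, 4 a GAS match, 4 an NF-κB match and 6 an AP-1 match. The shares among all 151654 regions were 17.2%, 26.2%, 21.8% and 31.1% in the same order. Some of the windows overlap and share matches. An AP-1 match was counted at both CXCL9 +5121 and +4232, and a GAS match at both CXCL11 +882 and −3. The CXCL11 −8909 window, which passed no test of H3K27ac, held 2 ISRE matches and an NF-κB match, and the CXCL11 −858 window, which rose with IFN in USP18−/− cells, held no match to any of the 4 motifs.

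**Figure D1:**
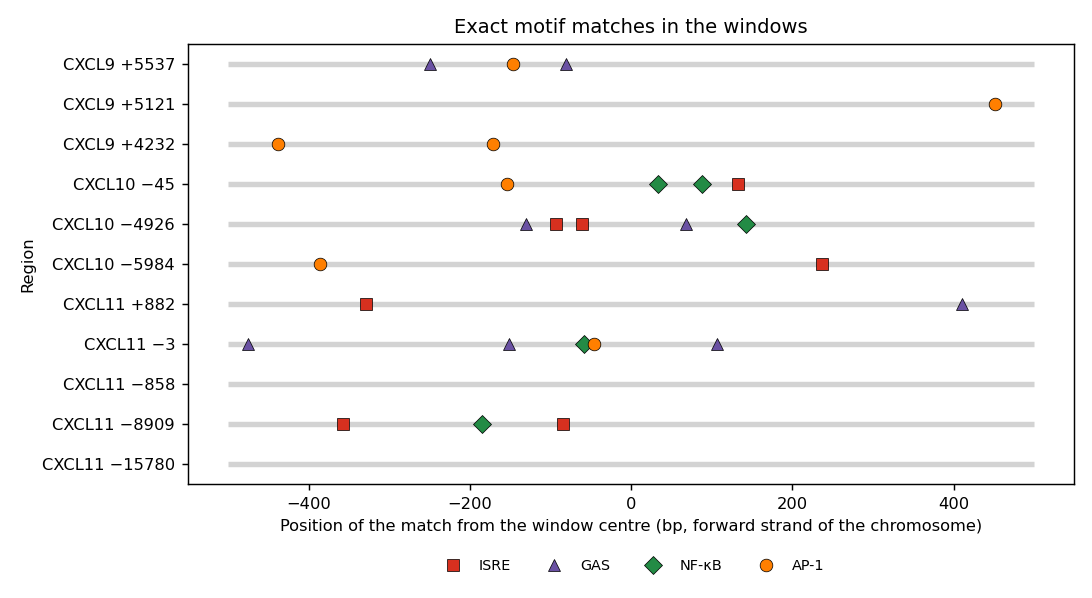
Exact motif matches in the 11 windows (rows, named by gene and distance to its TSS) against the distance of the match from the window centre in bp. Squares, triangles, diamonds and circles mark ISRE, GAS, NF-κB and AP-1 matches. The CXCL10 −4926 window holds 2 ISRE matches near its centre, and the CXCL11 −858 and −15780 windows hold no match.

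In IFN-treated USP18−/− cells the locus was acetylated well above the other 3 groups. Of 11 regions, 9 rose with IFN in USP18−/− cells, and 10 were higher in USP18−/− than in WT cells when both had received IFN. Without CXCL10 −45 and CXCL11 −858 these counts were 7 and 8 of 9. In WT cells, 1 of 11 rose with IFN. The 3 CXCL9 regions were already higher in untreated USP18−/− cells, whereas 0 of the 8 regions of CXCL10 and CXCL11 were. A region was called when its edgeR quasi-likelihood test gave an adjusted p under 0.05 over all 123276 tested regions and a fold change above 2.

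These counts can be read against all tested regions. In WT cells 0.343% of tested regions rose with IFN and 0.0389% fell, against 1 and 0 of the 11. In USP18−/− cells 7.12% rose and 4.41% fell with IFN, against 9 and 0. Between the genotypes without IFN, 5.69% were higher and 10.8% lower in USP18−/− cells, against 3 and 0. With IFN in both genotypes these shares were 11.3% and 13.5%, against 10 and 0. The test of the difference between both IFN effects called 4.61% of tested regions with a larger effect in USP18−/− cells and 2.55% with a smaller one, against 8 and 0. The median log2 fold changes of the 11 regions, in the same order of comparisons, were 0.22, 3.48, −0.42, 2.57 and 3.36. Over the 9 regions that passed the filter without the IFN-treated USP18−/− libraries, the medians were 0.22, 1.47, −0.42, 2.42 and 2.44, and 6 had a larger IFN effect in USP18−/− cells. Over all tested regions the corresponding medians were −0.01, −0.01, −0.02, 0.00 and 0.01. For the counts of 0 lower regions, an unadjusted p under 0.05 with a lower value was found at 2 of the 11 in untreated cells and at 0 in the other comparisons, and DESeq2 called 0 lower in each.

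Scaling by the sum of counts in place of TMM moved the median of all regions by more than 0.1 in every comparison that used USP18−/− cells, to −0.14 for IFN in USP18−/− cells, −0.16 between untreated genotypes, −0.27 between IFN-treated genotypes and −0.13 for the difference of the IFN effects. The split of all called regions moved with it. For IFN in USP18−/− cells it went from 8781 higher and 5434 lower to 7472 and 7934. Between untreated genotypes it went from 7020 and 13321 to 4990 and 16943, and between IFN-treated genotypes from 13971 and 16595 to 8825 and 24119. For the difference of the IFN effects it went from 5682 and 3140 to 4686 and 4829. The counts of higher regions in the locus changed by less than 1.5 times.

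**Figure D2:**
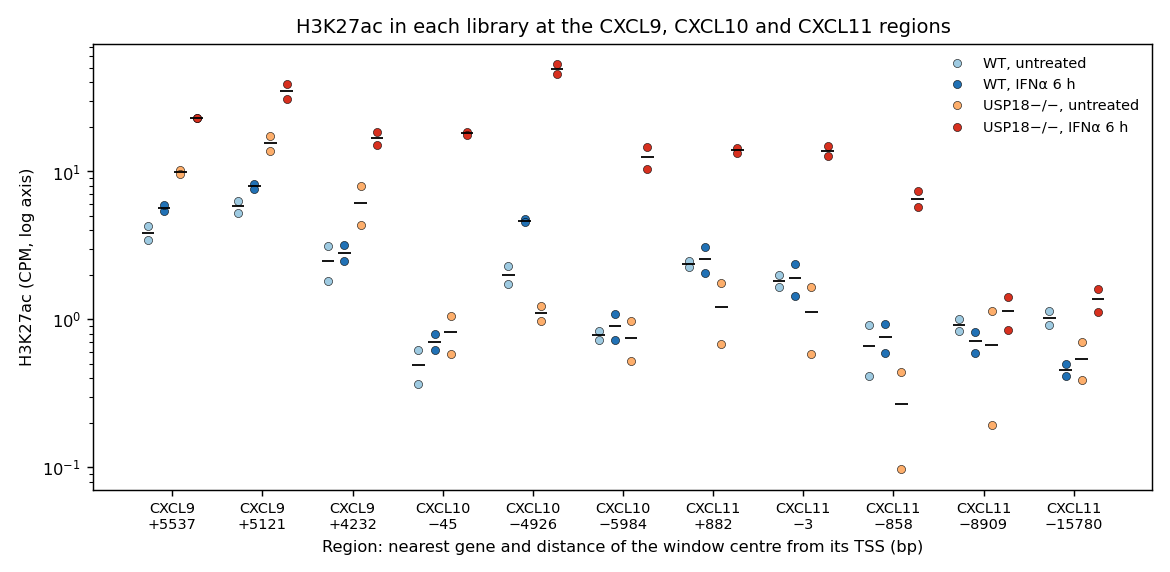
H3K27ac in CPM (log axis) at the 11 regions in each of 8 libraries, with points for libraries and bars for the means of the 4 groups of 2. The IFN-treated USP18−/− libraries sit above the other 6 at the CXCL9 and CXCL10 regions and at CXCL11 +882, −3 and −858. Of these, CXCL10 −45 and CXCL11 −858 passed the filter on low values only through those libraries. The CXCL11 −8909 region is the one with the most mixed order.

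CXCL10, which encodes the chemokine also known as IP-10, changed most in level. Its promoter region, centred 45 bp upstream of the TSS at chr4:76023081-76024081, spans the first exon of CXCL10 and also lies in an intron of ART3. The region held 6 and 4 tags in untreated WT cells, 8 and 6.5 in IFN-treated WT cells, 12.5 and 6 in untreated USP18−/− cells, and 207.5 and 187.5 in IFN-treated USP18−/− cells. In CPM these were 0.622 and 0.364, then 0.795 and 0.618, then 1.05 and 0.580, and last 18.5 and 17.7. The first 3 groups thus lay near the limit of what these libraries could count, and they overlapped, whereas both IFN-treated USP18−/− libraries stood far above them. The fitted log2 fold change with IFN was 4.43 ± 0.27 (SE) in USP18−/− cells and 0.53 ± 0.59 in WT cells, a difference of 3.90 ± 0.77. Because the region entered the test through the IFN-treated USP18−/− libraries and its other libraries held few tags, these values are imprecise and are given with no p.

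The region 4926 bp upstream, chr4:76027962-76028962 in intron 1 of ART3, was the most strongly marked region of CXCL10. It had 2.28 and 1.73 CPM in untreated WT cells and 4.77 and 4.53 CPM after IFN. Untreated USP18−/− cells had 1.23 and 0.967 CPM, and IFN-treated USP18−/− cells had 53.1 and 45.6 CPM. The 4 groups did not overlap here, and their order was untreated USP18−/−, untreated WT, IFN-treated WT and IFN-treated USP18−/− cells. This was the 1 region of the locus that rose with IFN in WT cells, by a log2 fold change of 1.22 ± 0.28 (edgeR adjusted p = 0.0069). The call was lost without untreated WT replicate 2 (log2 fold change 1.02, edgeR adjusted p = 0.29), without IFN-treated WT replicate 1 (1.18, edgeR adjusted p = 0.11) and without IFN-treated WT replicate 2 (1.26, edgeR adjusted p = 0.057). In USP18−/− cells the region rose 44.4-fold (log2 fold change 5.47 ± 0.21, edgeR adjusted p = 2.8e-37), rank 28 of 123276 by size. The IFN effects differed by 4.25 ± 0.42 on the log2 scale (edgeR adjusted p = 2.8e-13). Between the untreated groups the log2 fold change was −0.84 ± 0.37 (edgeR adjusted p = 0.069). Its printed centre is the sequence with the pair of ISRE matches on opposite strands.

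The third CXCL10 region, 5984 bp upstream at chr4:76029020-76030020, had group means of 0.779 ± 0.072, 0.907 ± 0.263 and 0.746 ± 0.313 CPM (SD, n = 2) in untreated WT, IFN-treated WT and untreated USP18−/− cells, and 12.5 ± 3.06 CPM (SD, n = 2) in IFN-treated USP18−/− cells. It rose with IFN in USP18−/− cells by 4.06 ± 0.31 on the log2 scale, and its change in WT cells was 0.23 ± 0.51. The libraries of the first 3 groups held 5.5 to 11 tags here, near the limit of what could be counted. Of these libraries 2 reached 10 counts, the fewest that the filter allows, so these values are imprecise.

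CXCL11, which encodes the CXCR3 ligand I-TAC, was also highest in IFN-treated USP18−/− cells around its start. The promoter region, centred 3 bp upstream of the TSS at chr4:76035700-76036700, had 1.66 and 2.00 CPM in untreated WT cells, 2.38 and 1.44 CPM in IFN-treated WT cells, 1.66 and 0.580 CPM in untreated USP18−/− cells, and 12.6 and 14.9 CPM in IFN-treated USP18−/− cells. The first 3 groups overlapped. IFN raised the signal 11.9-fold in USP18−/− cells (log2 fold change 3.57 ± 0.28, edgeR adjusted p = 4.0e-19), whereas the change in WT cells was 0.06 ± 0.37 (edgeR adjusted p = 0.99). The effects differed by 3.51 ± 0.49 (edgeR adjusted p = 3.1e-08). Without untreated USP18−/− replicate 1 the rise in USP18−/− cells was 4.51 and the difference 4.44, and over all single libraries left out these ranged from 3.04 to 4.51 and from 2.98 to 4.44.

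The neighbouring window in the gene body, 882 bp downstream of the TSS at chr4:76034815-76035815 over exon 2, shares 115 bp with the promoter window and is not an independent measurement. It had 2.49 and 2.28 CPM in untreated WT cells and 3.08 and 2.06 CPM after IFN. In USP18−/− cells it had 1.75 and 0.677 CPM before and 14.4 and 13.3 CPM after IFN. The window rose with IFN in USP18−/− cells by 3.48 ± 0.27 on the log2 scale and by 0.12 ± 0.32 in WT cells, and these effects differed by 3.36 ± 0.44 (edgeR adjusted p = 7.1e-09). Without untreated USP18−/− replicate 1 the rise in USP18−/− cells was 4.31 and the difference 4.18, and the ranges over single libraries left out were 2.98 to 4.31 and 2.86 to 4.18. In untreated cells it was lower in USP18−/− than in WT cells by a log2 fold change of −0.93 ± 0.37 with an edgeR adjusted p of 0.041, short of the 2-fold threshold.

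On the other side of the start, the −858 window (chr4:76036555-76037555) shares 145 bp with the promoter window and covers the 315 bp of RPL36P8, a processed pseudogene of a ribosomal protein, whose reads may be shared with its parent gene. Its tags were 4 and 9.5, 5.5 and 9, 5 and 1, and 65 and 78.5 over the 4 groups in the order used above. This window passed the filter only through the IFN-treated USP18−/− libraries. Its fitted log2 fold change with IFN in USP18−/− cells was 4.51 ± 0.43, set against only 5 and 1 tags, and was 5.89 without untreated USP18−/− replicate 1 and 3.87 without replicate 2.

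The most distant CXCL11 regions, 8909 and 15780 bp upstream in intron 1 of ART3, stood apart from the rest. At −8909 the 4 group means lay between 0.665 and 1.13 CPM and the region passed no test. At −15780 the means were 1.03 and 0.454 CPM in WT cells without and with IFN and 0.543 and 1.36 CPM in USP18−/− cells. Neither IFN effect at −15780 passed the test (log2 fold change −1.14 ± 0.63 in WT and 1.30 ± 0.56 in USP18−/− cells, edgeR adjusted p = 0.62 and 0.086), but they differed by 2.44 ± 0.84 (edgeR adjusted p = 0.043). This difference rested on 4 to 17.5 tags per library and lost its call without untreated WT replicate 1 or 2, IFN-treated WT replicate 1 or 2, untreated USP18−/− replicate 2 or IFN-treated USP18−/− replicate 1, with edgeR adjusted p up to 0.20. With 2 other scalings, tag directory totals and the sum of counts, the adjusted p was 0.053 and 0.058. Between IFN-treated genotypes −15780 was called as the tenth region (log2 fold change 1.56 ± 0.60, edgeR adjusted p = 0.028), again not with the sum of counts (edgeR adjusted p = 0.077).

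CXCL9, which encodes the ligand MIG and is best known as a target of type II IFN, had a different order of groups. Its 3 windows overlap in a chain by 584 and 111 bp over the 3′ end of the gene, mainly its last exon and 3′ UTR, and also lie in an intron of the antisense transcript SDAD1-AS1. No region of the table was centred at the CXCL9 TSS, the nearest lying 4232 bp downstream, so that the promoter printed above was not measured here. At the region with the highest signal, 5121 bp downstream at chr4:76001902-76002902, untreated WT cells had 6.33 and 5.28 CPM and IFN-treated WT cells 8.25 and 7.62 CPM. Untreated USP18−/− cells had 17.4 and 13.7 CPM, and IFN-treated USP18−/− cells had 39.1 and 31.1 CPM. No groups overlapped, and each USP18−/− library lay above every WT library, with or without IFN.

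Without IFN this region was 2.70-fold higher in USP18−/− than in WT cells (log2 fold change 1.43 ± 0.18, edgeR adjusted p = 2.6e-10). IFN raised it 2.25-fold in USP18−/− cells (1.17 ± 0.14, edgeR adjusted p = 4.0e-11), and without IFN-treated USP18−/− replicate 1 this fell just under 2-fold (0.96). In WT cells the change was 0.46 ± 0.20 (edgeR adjusted p = 0.46). The effects differed by 0.71 ± 0.25 (edgeR adjusted p = 0.046), under the 2-fold threshold.

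The region nearest the TSS, at chr4:76002791-76003791, had 3.11 and 1.82 CPM in untreated WT cells, 3.18 and 2.47 CPM in IFN-treated WT cells, 4.38 and 7.93 CPM in untreated USP18−/− cells, and 15.1 and 18.6 CPM in IFN-treated USP18−/− cells. The WT groups overlapped each other, and both USP18−/− groups lay above them. Untreated USP18−/− cells were 2.50-fold above WT cells (log2 fold change 1.32 ± 0.27, edgeR adjusted p = 5.2e-05), and this fell under 2-fold without untreated WT replicate 2 (0.97) or untreated USP18−/− replicate 2 (0.85). The IFN effects differed by 1.25 ± 0.38 (edgeR adjusted p = 0.019), a call that was lost with DESeq2 (1.24, DESeq2 adjusted p = 0.080) and without any 1 of untreated WT replicate 1, IFN-treated WT replicate 2, untreated USP18−/− replicate 1 or IFN-treated USP18−/− replicate 2. The third window, at 5537 bp, had 4.25 and 3.46 CPM in untreated WT, 5.37 and 5.97 in IFN-treated WT, 10.2 and 9.67 in untreated USP18−/− and 22.96 and 22.92 CPM in IFN-treated USP18−/− cells, with no overlap of groups. For it the IFN effects differed by 0.64 ± 0.29 (edgeR adjusted p = 0.15).

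**Figure D3:**
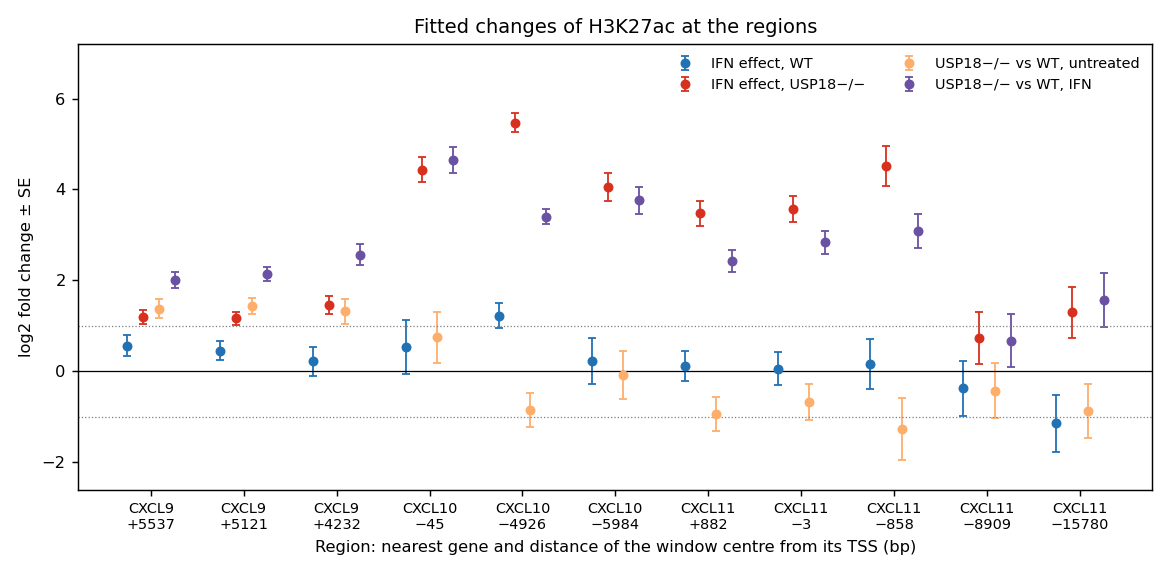
Fitted log2 fold change with its SE at each region for IFN in WT cells, IFN in USP18−/− cells, and USP18−/− against WT cells without and with IFN. Dotted lines mark 2-fold. The CXCL9 regions rise between untreated genotypes by 1.32 to 1.43, and the CXCL10 regions rise with IFN in USP18−/− cells by 4.06 to 5.47.

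The genes took different shares of the signal in each group. Summed over the windows of each gene, in which overlapping windows count some tags more than once, untreated WT cells had 12.1 ± 2.21 CPM at CXCL9, 3.28 ± 0.645 at CXCL10 (SD, n = 2), and 6.53 and 7.10 CPM at CXCL11. IFN-treated USP18−/− cells had 74.9 ± 3.22, 80.0 ± 2.83 and 36.7 ± 1.21 CPM (SD, n = 2). The CXCL9 windows held 83.3% ± 6.02 of the sum in untreated USP18−/− cells and 39.1% ± 0.692 after IFN. Over the same groups the CXCL10 share went from 6.97% ± 0.082 to 41.7% ± 0.423. In WT cells the CXCL10 share was 14.7% ± 1.28 before and 21.5% ± 0.343 after IFN. With 2 libraries a group an exact permutation test of such shares cannot reach p under 0.05, and none was run.

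**Figure D4:**
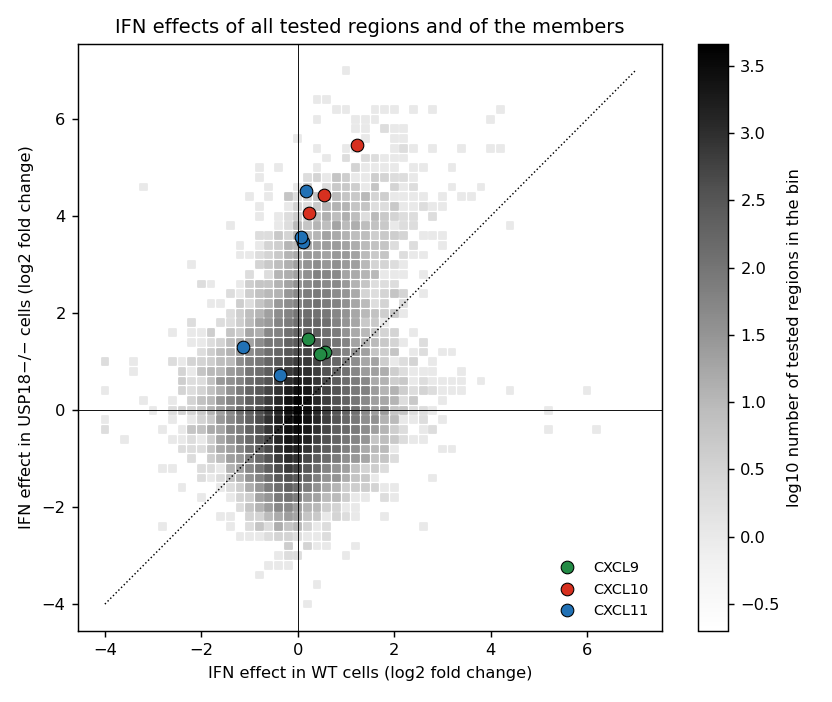
IFN effect in WT cells (x axis) against that in USP18−/− cells (y axis), both as log2 fold changes, with grey squares for the number of tested regions per bin of 0.2 and coloured points for the 11 regions. Both effects were computed from separate untreated groups, the dotted line marks equal effects, and the CXCL10 and near CXCL11 regions lie at 3.48 to 5.47 on the y axis and 0.06 to 1.22 on the x axis.

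Regions assigned to other genes also changed. Within 100000 bp of the locus lay 23 other regions, of which 20 were tested. With IFN in USP18−/− cells 9 of these rose and 2 fell, or 5 and 2 of the 16 that passed the filter without the IFN-treated USP18−/− libraries, and in WT cells edgeR called 0, with an unadjusted p under 0.05 at 4 higher and 1 lower regions and 0 called by DESeq2. The region with the highest signal lay between CXCL9 and CXCL10, 584 bp into ART3, a gene for a mono-ADP-ribosyltransferase family member that reads in the opposite direction. Its means were 19.0 CPM in untreated WT, 36.5 in IFN-treated WT, 15.9 in untreated USP18−/− and 133 CPM in IFN-treated USP18−/− cells, the highest of all regions in the locus. There the IFN effect was 0.95 on the log2 scale in WT cells (edgeR adjusted p = 3.6e-09), just under 2-fold, and 3.06 in USP18−/− cells (edgeR adjusted p = 2.5e-39), a difference of 2.11 (edgeR adjusted p = 4.4e-18). Its window overlaps the one at ART3 1075 by 509 bp, where the means were 17.0, 27.8, 11.7 and 82.6 CPM in the same order. Because ART3 spans both chemokine genes CXCL10 and CXCL11 and ChIP tags carry no information on the transcribed strand, the signal cannot be assigned to one of the overlapping genes.

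Upstream of CXCL11, regions labelled ART3 −14750, −14006, −12533 and −6830 had means of 0.184 to 0.779 CPM in the other 3 groups and of 3.64, 4.96, 3.38 and 2.06 CPM in IFN-treated USP18−/− cells. Their fitted log2 fold changes with IFN in USP18−/− cells were 2.70, 3.15, 2.37 and 3.40, of which 3.15 and 3.40 were above that at ART3 584, but all 4 passed the filter only through the IFN-treated USP18−/− libraries. On the SDAD1 side, the SDAD1 promoter region (a gene of ribosome biogenesis) had 4.54, 5.04, 4.24 and 9.33 CPM and rose with IFN in USP18−/− cells by 1.13 on the log2 scale, which fell under 2-fold with scaling by the sum of counts (1.00) and without untreated USP18−/− replicate 2 (0.93). On the other side, the promoter region of NUP54, a nucleoporin gene, had 20.9, 25.7, 26.1 and 28.6 CPM and a log2 fold change of 0.13 with IFN in USP18−/− cells (edgeR adjusted p = 0.51). Upstream of PPEF2, a phosphatase gene, overlapping windows at −5706 and −6132 fell with IFN in USP18−/− cells by 1.83 and 1.70 on the log2 scale, the former from 13.8 to 3.88 CPM.

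**Figure D5:**
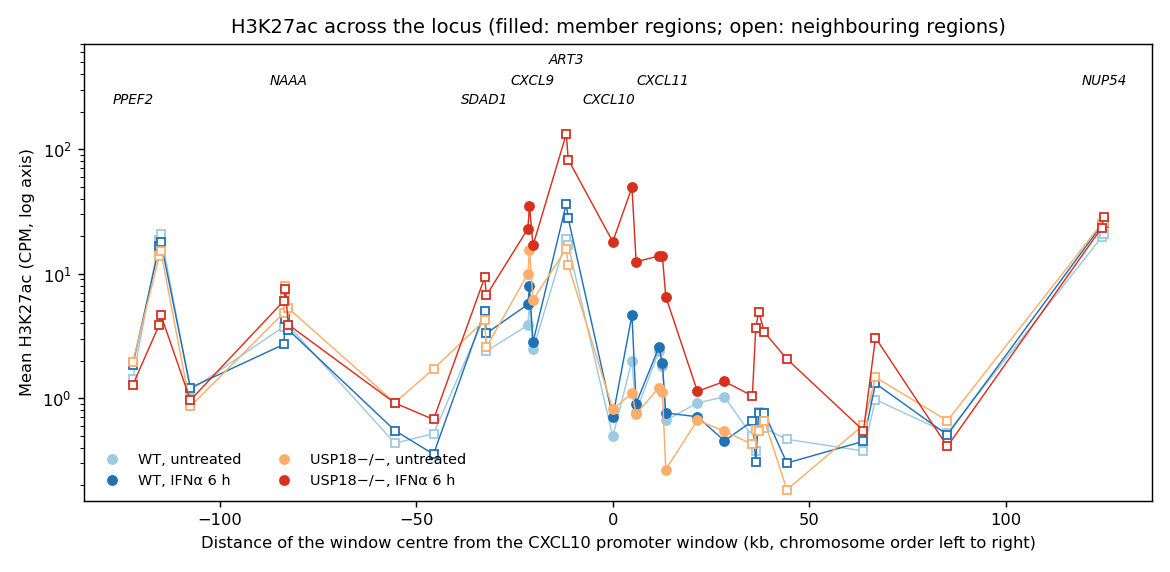
Mean H3K27ac in CPM (log axis) of the 4 groups at the 11 regions (filled) and 23 neighbouring regions (open) against the distance from the CXCL10 promoter window in kb, in chromosome order. The IFN-treated USP18−/− line is highest from the SDAD1 promoter to beyond CXCL11, peaks at 133 CPM in ART3 and meets the others at NUP54.

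Few promoter regions of the receptor and of related chemokines were called. Of the 5 genes listed for the CXCR3 axis, 3 had a region within 1000 bp of the TSS, and edgeR called 0 of them in any of the 5 comparisons. The counts at an unadjusted p under 0.05 were 0 for both IFN effects and their difference and 1 lower for each comparison of genotypes, and DESeq2 called 0. The CXCR3 promoter region had means of 5.93, 6.18, 4.17 and 3.79 CPM over the 4 groups. Between IFN-treated genotypes CXCR3 was lower in USP18−/− cells by a log2 fold change of −0.70 (edgeR adjusted p = 0.020), under the 2-fold threshold. Of 10 other CXC chemokine genes of chromosome 4, 5 had a promoter region, and edgeR and DESeq2 each called 0 with IFN in either genotype. An unadjusted edgeR p under 0.05 was found at 1, CXCL8, in USP18−/− cells. CXCL8 fell there by a log2 fold change of −0.82 (edgeR adjusted p = 0.0011), under the 2-fold threshold. The neutrophil chemokine gene CXCL1 was lower in USP18−/− than in WT cells with IFN, by a log2 fold change of −1.14. It was also lower without IFN, by −0.98 (edgeR adjusted p = 5.6e-04), just under 2-fold. Its IFN effects differed by −0.16 (edgeR adjusted p = 0.87). CXCL2 was lower in untreated USP18−/− cells as well, by −0.64 (edgeR adjusted p = 5.3e-04).

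Among 9 factors that act on these promoters, all of which had a promoter region, 2 rose with IFN in WT cells. These were IRF9 (log2 fold change 1.67), which binds the ISRE, and IRF7 (1.24). In USP18−/− cells 4 rose with IFN, adding STAT2 (1.52) and IRF1 (1.03), the latter under 2-fold with 3 other scalings. In untreated cells edgeR called 0 between genotypes and DESeq2 called 0. At an unadjusted edgeR p under 0.05, 7 had a higher and 1 a lower value in USP18−/− cells. Higher with a passing adjusted p, but under 2-fold, were NFKB1 (0.87, edgeR adjusted p = 1.6e-08), RELA (0.80, edgeR adjusted p = 2.1e-07) and IRF9 (0.79, edgeR adjusted p = 7.3e-07). The same held for FOS (0.76, edgeR adjusted p = 1.8e-08), JUN (0.62, edgeR adjusted p = 0.026) and IRF7 (0.55, edgeR adjusted p = 6.7e-06). IRF8 was lower (−0.65, edgeR adjusted p = 4.7e-05), also under 2-fold. With IFN, 8 of 9 were higher in USP18−/− cells, all but IRF8, but with scaling by the sum of counts IRF9, IRF1, IRF7, RELA, JUN and FOS were under 2-fold and 2 of the 8, STAT2 and NFKB1, stayed above it. STAT2 was the 1 factor called with a larger IFN effect in USP18−/− cells, by 1.20 on the log2 scale. The effects of IRF1 (by 0.79, edgeR adjusted p = 2.8e-04) and IRF7 (by 0.54, edgeR adjusted p = 0.0028) were also larger, under the 2-fold threshold. At an unadjusted edgeR p under 0.05 the difference was higher for 7 of the 9 and lower for 0. The medians of the 9 factors over the 5 comparisons were 0.23, 0.69, 0.62, 1.14 and 0.43.

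Of 9 genes of IFN signalling, USP18 alone was called higher with IFN in WT cells. It was under 2-fold, at 0.95 on the log2 scale, without IFN-treated WT replicate 1. SOCS1, a feedback inhibitor of JAK signalling, rose in WT cells by 0.59 (edgeR adjusted p = 5.9e-04), under the 2-fold threshold. In USP18−/− cells SOCS1 and USP18 were called higher, by 1.43 and 2.44 on the log2 scale. JAK2 (0.68, edgeR adjusted p = 3.6e-12) and IFNGR2 (−0.36, edgeR adjusted p = 0.0024) changed there by less than 2-fold. Between IFN-treated genotypes 2 of the 9 were called higher in USP18−/− cells, SOCS1 (1.38) and USP18 (1.46). In untreated cells 0 were called between genotypes, with a higher value at an unadjusted edgeR p under 0.05 at 6. Among these were IFNGR2 (0.87, edgeR adjusted p = 1.6e-11), IFNAR1 (0.67, edgeR adjusted p = 3.1e-06) and SOCS1 (0.55, edgeR adjusted p = 5.8e-05), all under 2-fold. The USP18 promoter region had 7.76 CPM in untreated WT, 16.6 in IFN-treated WT, 8.37 in untreated USP18−/− and 45.5 CPM in IFN-treated USP18−/− cells. This region does not test the edit of the gene. The medians of the 9 over the 5 comparisons were 0.05, 0.12, 0.35, 0.46 and 0.25.

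Promoter regions with the most similar course over the 8 libraries were sought among 22644 regions within 1000 bp of a TSS, as the root mean square (RMS) difference of centred log2 CPM. For the CXCL9 region nearest its TSS these included IFI30, a gene of lysosomal antigen processing, OR6P1, TOR1AIP1 and CREBRF, at RMS 0.166 to 0.229. IFI30, picked for its likeness to CXCL9 over these same libraries, had 1.57, 1.67, 3.44 and 11.9 CPM over the 4 groups. For the CXCL10 promoter they were RABGAP1L, GBP4, an interferon-induced guanylate-binding protein gene, BATF2, HDAC9 and PPP2R2A, at RMS 0.403 to 0.453. For the CXCL11 promoter they were 2 regions each of GMPR and of SERPING1, the gene of the complement C1 inhibitor, and 1 of RNU6-2, at RMS 0.314 to 0.354. The lists of the 3 genes shared no gene. These likenesses are descriptions over the same libraries.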

How the data were processed

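H3K27ac ChIP-seq was analysed in 8 libraries, 2 for each of 4 groups taken from the sample labels. Expected counts were deposited: raw tags, fractional because each mate gives 0.5, which the authors counted with HOMER after Bowtie2 mapping to hg38, taking 1000 bp around each peak of a merged ATAC-seq set, and 52.2% of them were whole numbers. The submitters' processing notes give no versions. Fractions were rounded. The 8 input libraries have no column and were not used here, and the column of ATAC-seq peaks was not used.

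Tests used edgeR 4.0.16 (glmQLFit and glmQLFTest, limma 3.58.1, R 4.3.3) on regions reaching 10 counts in 2 or more of 8 libraries, with TMM scaling, 1 mean per group and Benjamini-Hochberg adjustment over all 123276 regions. Calls needed an adjusted p under 0.05 and a fold change above 2. SE is the log2 fold change divided by the root of F. The common biological coefficient of variation was 0.0747. CPM divides rounded counts by the library size times its TMM factor.

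The regions and gene lists were chosen with earlier results of these data known. Named regions were, per gene, the one nearest the TSS, the one with the highest mean and the one with the smallest p for the difference of IFN effects. Lists used the region nearest the TSS within 1000 bp. Results for some listed genes are not reported here. Likeness used a pseudocount of 0.5 CPM. Motifs were searched with Python 3.11.15 in 1001 bases per window and annotation came from GENCODE 44. In data simulated for the IFN effect in USP18−/− cells over 123276 regions, 141 of 200 regions with a 3-fold change were called, as were all 84 of the 84 whose mean reached 30 counts, together with 2 unchanged regions.

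Same-numbered replicates did not deviate together (r = 0.0124, 0.0578, 0.0055 and 0.0019 for 4 comparisons), so the numbers were not taken as pairs. Alternatives were scaling by the sum of counts, upper quartile or tag directory totals, DESeq2 1.42.0, other filters, the adjusted p alone, promoter-proximal regions alone (within 3000 bp), a replicate block, the compared groups alone, unrounded tags and leaving out each library. Unrounded tags and tag directory totals were chosen after seeing the data.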

Additional observations from a re-analysis of the deposited data

Results flagged for a closer look

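The IFN effect was larger in USP18−/− than in WT cells at 8 of the 11 regions, by the edgeR test of the difference itself on the log2 scale. Among all tested regions 4.61% were called so. Over the 9 regions that passed the filter without the IFN-treated USP18−/− libraries the count was 6. DESeq2 called 6 of the 11 and gave no adjusted p to 2. At CXCL10 the differences were 3.90 (−45), 4.25 (−4926) and 3.83 (−5984). At CXCL11 they were 3.36 (+882), 3.51 (−3), 4.35 (−858) and 2.44 (−15780), and at CXCL9 the difference was 1.25 (+4232). The windows at +882, −3 and −858 overlap and share tags. Without single libraries the difference ranged from 0.83 to 1.72 at CXCL9 +4232 and from 2.10 to 2.90 at CXCL11 −15780, with calls lost in both ranges, and from 3.66 to 5.72 at CXCL11 −858. CXCL10 −45 and CXCL11 −858 passed the filter on low values only through the IFN-treated USP18−/− libraries, so their differences are descriptions.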

How the results depend on the processing

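Most values kept their direction and their side of the thresholds. The number of regions called lower between untreated genotypes was 0 and became 1 with scaling by the sum of counts, with at least 30 counts, with the adjusted p alone and with promoter-proximal regions alone, which in each case was CXCL11 +882. With proximal regions alone the locus has 4, CXCL10 −45 and CXCL11 +882, −3 and −858, since the others were not in the fit. Of these, CXCL10 −45 and CXCL11 −858 passed the filter only through the IFN-treated USP18−/− libraries, and the CXCL11 windows overlap. The regions called higher were 0 for IFN in WT cells and 0 between untreated genotypes. They were 4 for IFN in USP18−/− cells, 4 between IFN-treated genotypes and 4 for the difference, and these counts are descriptions. With DESeq2 the difference at CXCL9 +4232 was 1.24 (DESeq2 adjusted p = 0.080), and the cause was not tested. With upper quartile scaling the untreated change at CXCL10 −5984 was 0.011 in place of −0.07. Motif matches in the central 200 bp were at 2 regions for ISRE, 2 for GAS, 2 for NF-κB and 1 for AP-1.

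Without single libraries the regions called higher numbered 0 to 1 for IFN in WT cells, 8 to 9 for IFN in USP18−/− cells, 2 to 3 between untreated genotypes, 9 to 10 between IFN-treated genotypes and 6 to 7 for the difference, and those called lower between untreated genotypes 0 to 2. IFN effects in WT cells then ranged from −0.14 to 0.63 at CXCL9 +4232, −0.35 to 0.37 at CXCL11 −3, −0.10 to 0.49 at CXCL10 −5984, −0.21 to 0.37 at CXCL11 +882 and −0.26 to 0.85 at CXCL11 −858. Untreated changes ranged from 0.85 to 1.74 at CXCL9 +4232, −1.65 to −0.15 at CXCL11 −3, −0.55 to 0.31 at CXCL10 −5984 and −2.18 to 0.30 at CXCL11 −8909. CXCL11 −3 was called lower without untreated USP18−/− replicate 1 (edgeR adjusted p = 0.023). The difference at CXCL9 +4232 ranged from 0.83 to 1.72. The replicate block changed no call in the 11 regions, with 9 called higher for IFN in USP18−/− cells.

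Regions with few tags are limited by depth: DESeq2 gave no adjusted p to 2 of the 11 regions in USP18−/− comparisons and to 4 for IFN in WT cells.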
